A study of Mus musculus with 2 samples.

Results

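The Gimap genes encode GTPases of the immunity-associated proteins, small GTP-binding proteins with a shared AIG1-type domain. The family was taken by gene symbol from the authors' filtered table of transcript counts, and all 8 members sought (Gimap1, Gimap3, Gimap4, Gimap5, Gimap6, Gimap7, Gimap8 and Gimap9) were among its 13528 genes. Counts were summed over the cell types, clusters and genotypes that the deposited cell metadata name. The data came from CD45+ cells of the liver of C57BL/6 mice, 10 weeks old per the labels (the study's methods give a younger age), captured on the BD Rhapsody microwell system, which counts transcripts and antibody tags per cell as unique molecular identifiers (UMIs). One capture held dnTGFβRII and IFN-γ ARE-Del-/- animals and the other held P40-/-IL-2Ra-/- and wild type animals. The cells named TG are those of dnTGFβRII mice, a model of primary biliary cholangitis in which the mouse CD4 promoter drives a dominant negative human TGF-β receptor II, and the cells named WT are those of wild type mice. Each genotype was therefore a part of 1 library, which it shared with another genotype. An effect of genotype cannot be told apart from one of the library, and no test between genotypes was possible. Every interval below is a 95% interval of counting error only.

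Several GIMAP proteins sit on intracellular membranes of lymphocytes, and the family is known chiefly for keeping resting T and B cells alive. Loss of Gimap5 in rodents causes a severe lack of T cells, and Gimap1 is needed for mature T and B cells to persist. Gimap3 is a close paralogue of Gimap5, Gimap4 has been tied to T cell death, Gimap6 binds the autophagy protein Gabarapl2, and Gimap7 stimulates GTP hydrolysis by pairing with itself or with other members. Gimap8 has several GTP-binding domains, and Gimap9 is little studied.

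The 8 genes lay side by side on chromosome 6, within chr6:48647234-48770851 of GRCm38 (124 kb), 6 of them on the plus strand and Gimap6 and Gimap3 on the minus strand. The order was Gimap8, Gimap9, Gimap4, Gimap6, Gimap7, Gimap1, Gimap5 and Gimap3. An annotated read-through gene, Gm28053, overlaps Gimap7, Gimap1 and Gimap5, and held 17 UMIs in TG cells and 21 in WT cells. Of 75-base stretches, 3.95% of those of Gimap1, 1.9% of Gimap5 and 0.31% of Gimap7 also occur in Gm28053, and reads from them are uncertain. Gimap1 also has an antisense transcript, and whether the counting used strand is not given in the sources used here, so reads of that pair cannot be told apart. Of the 75-base stretches of Gimap3 transcripts, 3.32% also occur in Gimap5, and 1.97% of those of Gimap5 occur in Gimap3. For these stretches the counts of Gimap3 and Gimap5 are uncertain, and no such stretch was shared between members among the other 6.

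Upstream sequences of 3 members are shown, for the member that varied most between cell states (Gimap7), the member whose pattern was closest to it (Gimap4) and one that varied little (Gimap6). They come from RefSeq (GRCm38.p6), run 5′ to 3′ on the strand of the gene and stop before the first annotated base. Capitals mark TGTGGT, the core of RUNX motifs, and TCACAC, part of the T-box motif, on either strand.
Gimap7, chr6:48718371-48718606, plus strand: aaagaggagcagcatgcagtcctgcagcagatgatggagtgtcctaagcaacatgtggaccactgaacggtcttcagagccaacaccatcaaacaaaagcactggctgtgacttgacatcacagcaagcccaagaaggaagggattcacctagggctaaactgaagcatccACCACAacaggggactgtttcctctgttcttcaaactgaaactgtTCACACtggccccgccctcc
Gimap4, chr6:48684328-48684548, plus strand: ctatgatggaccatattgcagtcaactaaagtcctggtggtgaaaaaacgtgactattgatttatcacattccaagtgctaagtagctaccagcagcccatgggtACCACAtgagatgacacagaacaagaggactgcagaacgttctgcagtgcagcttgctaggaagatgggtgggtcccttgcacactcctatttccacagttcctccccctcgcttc
Gimap6, chr6:48708245-48708494, minus strand: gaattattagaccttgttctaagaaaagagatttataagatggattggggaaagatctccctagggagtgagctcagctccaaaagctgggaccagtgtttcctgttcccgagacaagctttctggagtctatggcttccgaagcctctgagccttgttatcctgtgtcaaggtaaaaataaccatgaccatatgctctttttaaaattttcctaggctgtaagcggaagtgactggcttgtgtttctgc
The letters TGTGGT occurred upstream of Gimap1, Gimap4 and Gimap7, against 14.0% of 32851 mouse promoters searched in the 250 bases before the start. The letters TCACAC occurred upstream of Gimap7 and Gimap8, against 12.3% of promoters. AGGAAG or CGGAAG, letters of ETS motifs, occurred in 8 of the 9 promoter entries of the family, against 39.2%. CACCC, letters of KLF motifs, occurred in 6 of the 9 entries, against 52.0%, and the E-box letters CAGGTG in 1, against 17.2%. These are matches of letters, and binding was not measured.

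In all, 4647 TG cells held 18498477 UMIs and 7282 WT cells held 22216379, with medians of 3298 and 2653.5 UMIs per cell. Cells of the 2 pools shared 267 barcodes among all called cells and 36 among the cells with a genotype name. Some names went against marker genes. TG cells named NK in clusters 3 and 11 held 4221 and 3499 CPM (UMIs per 1000000 UMIs of the set) of the T cell markers Cd3d, Cd3e, Cd3g and Trac, against 444 in cluster 8, and WT cells held 1347 in cluster 3. Of the WT cells named CD8αα T, 42.3% held a UMI of the γδ receptor gene Trdc, against 4.88% in TG. In cluster 17, named mature B, 28 of 29 TG cells and 140 of 155 WT cells held at least 2 UMIs of both T and B lineage genes. For the genotype ratios of mature B, CD8αα T and NK cells, and for NKT against B cells, values without these cells are given too. TG cells named NKT held less of the NKT cell markers Zbtb16 (43.0 against 107 CPM) and Klrb1c (439 against 784) than WT cells did, and more Cd4 (634 against 162). Cells named monocyte held 2862 CPM of the neutrophil gene Csf3r in TG and 2960 in WT, against 261 in TG cells named neutrophil. The neutrophil marker S100a8 was at 21386 and 10788 CPM in cells named monocyte, against 62117 in TG cells named neutrophil. S100a9 was at 27541 and 18306 against 67555. Both were also far higher in cells named monocyte than in those named macrophage. The latter held 126 (TG) and 156 (WT) CPM of S100a8 and 191 and 234 of S100a9. The name monocyte is used below only as given in the metadata. TG cells named macrophage held no UMI of the macrophage gene C1qa, while WT cells held 346, of which 318 were in the 23 cells of cluster 27, a cluster with no TG cell.

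The family was a lymphocyte set in this liver. It took 62555 UMIs in TG cells and 83324 in WT cells, 0.338% and 0.375% of all UMIs, and 98.0% and 97.8% of the family's UMIs were in T, NK and B cells, which were 89.3% and 89.0% of the cells. In TG cells the summed level ran from 6426 CPM in CD8αα T cells through 5714 in NKT, 4932 in NK, 4023 in CD4 T and 3364 in CD8αβ T cells to 2246 in mature B and 2071 in immature B cells. In WT cells NKT cells came first, at 6521 CPM, followed by CD8αα T cells at 5875, NK cells at 5028, CD4 T cells at 3189, CD8αβ T cells at 3021, mature B cells at 2423, immature B cells at 2213 and γδ T cells at 1372. The counting intervals of neighbours in either order did not overlap among these lymphocytes. In TG the place of NK cells above CD4 T cells rested on clusters 3 and 11, which carried T markers as given above. Cluster 8 alone held 3641 CPM in TG and 3725 in WT. Because levels are a share of a cell's UMIs, a set in which other transcripts are abundant gives a lower value for the same number of Gimap molecules.

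**Figure D1:**
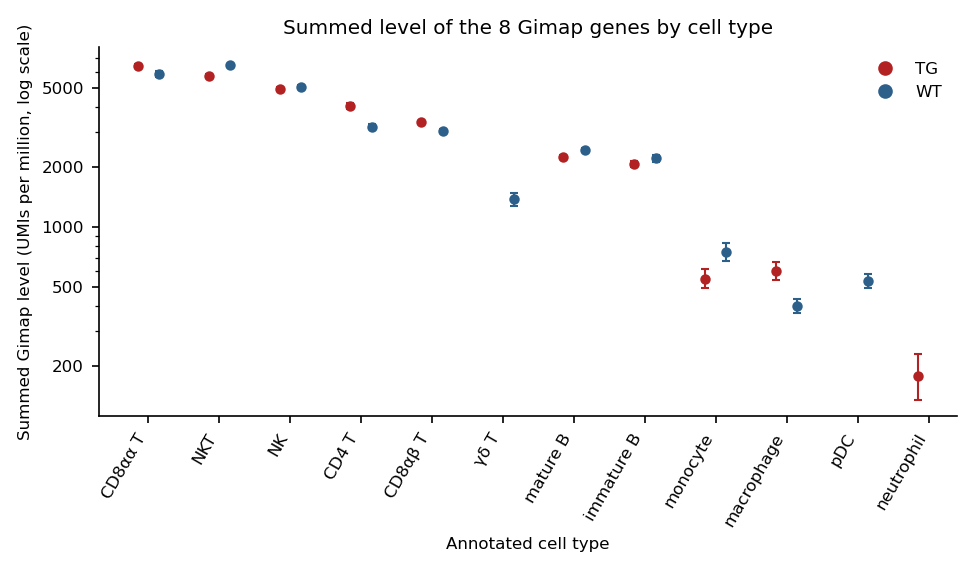
Summed level of the 8 Gimap genes (CPM, log scale) in each annotated cell type with at least 50 cells, for TG and WT cells. Points are summed counts of 1 library per genotype and bars are 95% Poisson intervals. CD8αα T and NKT cells lie highest, between 5714 and 6521 CPM, B cells between 2071 and 2423, and monocytes and macrophages at 748 or less.

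Myeloid cells held little of the family, from 178 CPM in TG neutrophils and 400.1 in WT macrophages to 603 in TG macrophages and 748 in WT monocytes. These levels moved with T cell transcripts. The 4 T markers stood at 506 CPM in TG and 275 in WT macrophages and at 371 and 605 in monocytes, so that the family per T marker UMI was 1.19 and 1.45 in macrophages and 1.48 and 1.24 in monocytes, beside 1.26 and 1.22 in CD8αα T cells. The higher family level of TG over WT macrophages (log2 ratio 0.59, 0.40 to 0.78) and the lower one in monocytes (-0.44, -0.66 to -0.23) went with those marker levels, and their part in the result was not tested. The cells named macrophage also lay in different clusters. Cluster 15 held 89 of 109 TG and 158 of 261 WT cells, at 764 and 491 CPM of the family, and cluster 22 held 20 and 80 cells, at 183 and 191. Cluster 27 held only WT cells, 23 of them, at 759 CPM. In B cells of cluster 1 the family held 13.2 UMIs per T marker UMI in TG and 15.5 in WT, and in NK cells of cluster 8 it held 8.20 and 12.3.

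Gimap7 and Gimap4 separated NKT from mature B cells more than Gimap1 and Gimap6 did. Gimap7 stood at 476 CPM (TG) and 454 (WT) in NKT cells and at 137 and 124 in mature B cells, a log2 ratio of 1.79 in TG and 1.88 in WT. Gimap4 had ratios of 1.85 and 2.13, from 389 and 335 CPM in mature B cells, and Gimap3 had 1.73 and 1.98. Gimap1 and Gimap6 were closer in both lineages. For Gimap1 the level in mature B cells was 318 CPM in TG and 375 in WT against 475 and 555 in NKT cells, a log2 ratio of 0.58 and 0.57. For Gimap6 it was 477 and 587 CPM against 756 and 880.0, a ratio of 0.67 and 0.58. Past 1.5-fold higher in NKT cells were 7 of 8 members in TG, where 24.1% of all genes were, and 6 of 8 in WT, where 21.9% were. Against cluster 1 alone, without the B cells of cluster 17, 7 of 8 were past it in both genotypes, where 25.1% of genes in TG and 24.7% in WT were. The ratios of Gimap7 were then 1.88 and 2.26, those of Gimap4 were 1.93 and 2.46, and those of Gimap6 were 0.66 and 0.62. In WT CD4 T cells Gimap7, at 129 CPM, was within counting error of mature B cells and above the 94.6 of cluster 1, and in WT CD8αβ cluster 4 it was lower than in either, at 66.7.

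**Figure D2:**
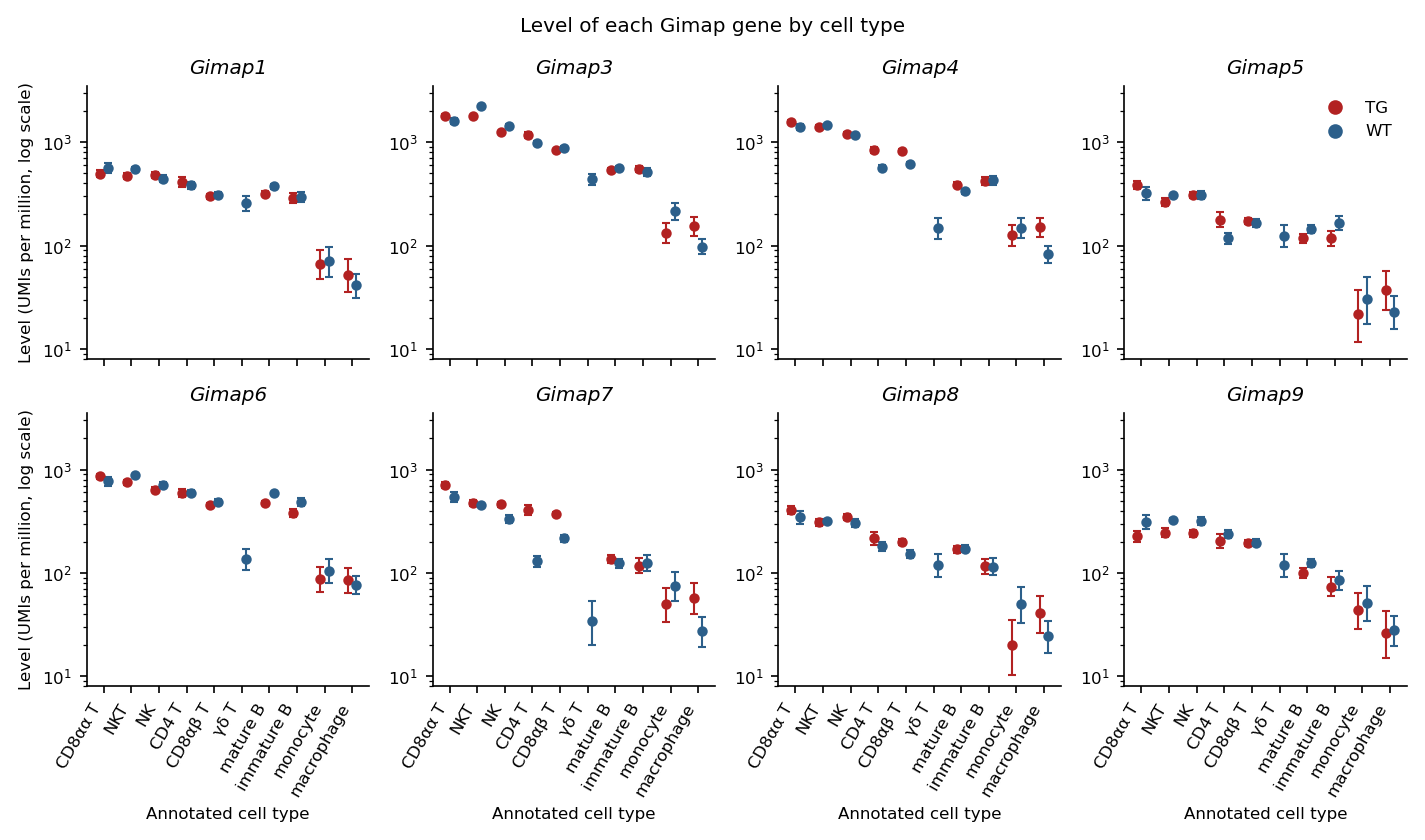
Level of each Gimap gene (CPM, log scale) across cell types with at least 50 cells, TG and WT, with 95% Poisson intervals. Gimap7 spans the widest range among lymphocytes, from 33.9 CPM in WT γδ T cells to 704 in TG CD8αα T cells, while Gimap1 spans 258 to 562.

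The cells named γδ T, 192 cells in WT and only 17 in TG, had the lowest family level of any lymphocyte set. All 8 members were past 1.5-fold lower than in WT NKT cells, where 22% of all genes were, and the family held 0.467 UMIs per T marker UMI. The gap differed between members. Gimap7 was at 33.9 CPM (20.1 to 53.6) against 454 in NKT cells, a log2 ratio of -3.75 (-4.50 to -3.08), and Gimap4 was at 147 against 1462, a ratio of -3.32. Gimap1, at 258 against 555 CPM, had a ratio of -1.11 (-1.36 to -0.86). Against WT CD4 T cells 6 of 8 members were past 1.5-fold lower, where 13% of genes were, while Gimap5 was at 124 against 118 CPM. γδ T cells had a median mitochondrial share of 7.07%, against 5.21% in WT NKT cells. Carrying Trdc did not go with a low family level among the cells named CD8αα T. The 82 WT cells with a Trdc UMI held 5701 CPM of the family (5399 to 6015) and 484 CPM of Gimap7, and the 112 without one held 6003 (5736 to 6279) and 588.

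Among cells named NK, cluster 3, rich in the integrin gene Itga1 (CD49a), a mark of tissue-resident cells, had a higher family level than clusters 8 and 11. Cluster 3, with 516 CPM of Itga1 in TG and 492 in WT, held 5948 and 6256 CPM of the family, and cluster 8, with 28.3 and 5.51 CPM of Itga1, held 3641 and 3725. Cluster 11 had 343 cells in TG and 22 in WT, with 294 and 21.6 CPM of Itga1, and held 4855 and 3348 CPM of the family. In both genotypes 4 of 8 members were past 1.5-fold higher in cluster 3, where 16.1% of genes in TG and 13.9% in WT were. Gimap3 stood at 1684 against 803 CPM in TG and 2041 against 785 in WT, and Gimap7 at 549 against 226 and 468 against 190.2. Gimap9 went the other way, at 200.2 against 258 CPM in TG and 273 against 365 in WT. TG cells of cluster 3 held more T cell marker UMIs than WT cells did, as given above, and the log2 ratios of the family over cluster 8 were 0.71 and 0.75.

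Between genotypes, Gimap7 had the widest gap of the family, and it was in conventional T cells. In CD4 T cells Gimap7 was at 407 CPM (365 to 453) in TG and 129 (114 to 146) in WT, a log2 ratio of 1.65 (1.41 to 1.89). In CD8αβ T cells it was at 369 CPM (353 to 385) in TG and 217 (200.5 to 234) in WT, a ratio of 0.77 (0.64 to 0.90). Neither pair of intervals overlapped. A Gimap7 UMI was found in 51.3% of TG and 23.6% of WT CD4 T cells, and in 68.1% and 38.2% of CD8αβ T cells. In the cells named monocyte, which are no lymphocytes, the share was 8.33% and 6.98%. Median depths were 3189 and 2437.5 UMIs in CD4 T cells, 4557 and 2996 in CD8αβ T cells, and 2614.5 and 1769.5 in monocytes. With each cell thinned to 1000 UMIs, which left out no cell, the shares were 26.1% and 10.1% in CD4 T, 28.7% and 16.1% in CD8αβ T and 3.43% and 3.88% in monocytes.

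With smaller gaps than Gimap7, Gimap4 was also higher in TG in both of these T cell types. It was at 842 CPM in TG and 567 in WT CD4 T cells, a log2 ratio of 0.57 (0.43 to 0.71), and at 829.6 and 611 in CD8αβ T cells, a ratio of 0.44 (0.36 to 0.52). Gimap5 was at 179 and 118 CPM in CD4 T cells, a ratio of 0.60 (0.30 to 0.91), but at 173 and 164 in CD8αβ T cells. Gimap8 was at 199.7 and 152 CPM in CD8αβ T cells, a ratio of 0.39 (0.23 to 0.55). Gimap6 was nearly level, at 589.5 and 597 CPM in CD4 T cells (-0.02, -0.17 to 0.13) and 454 and 490.0 in CD8αβ T cells (-0.11, -0.20 to -0.02). Past 1.5-fold higher in TG were 2 of 8 members in CD4 T cells, Gimap7 and Gimap5, where 12.9% of 6457 genes were, and 1 of 8 in CD8αβ T cells, Gimap7, where 9.43% of 9041 genes were. None of the 8 members was past 1.5-fold lower in either, where 7.56% and 6.22% of genes were. The family sum was higher in TG by a log2 ratio of 0.34 (0.27 to 0.40) in CD4 T and 0.16 (0.12 to 0.19) in CD8αβ T cells. Both were smaller under some alternatives, and the CD8αβ ratio was larger under others, as given at the end. TG T cells also had the lower mitochondrial share, 5.37% against 6.95% in CD4 T and 5.35% against 7.03% in CD8αβ T cells, and its part in these ratios was not tested. The NK cell gene Ncr1 and Cd4 were also higher in TG CD8αβ T cells. Ncr1 was at 83.9 CPM against 23.8 in WT and Cd4 at 186 against 92.0. Of the Ncr1 UMIs, 409 of 445 in TG and 59 of 73 in WT were in cluster 7. In CD8αβ clusters 4 and 13 Ncr1 was at 2.77 and 7.22 CPM in TG and at 1.91 and 14.5 in WT. The part of Cd4 in the ratios was not tested. B and T lineage genes were found together in 117 of 1020 TG and 17 of 819 WT cells, and without these cells the ratio of Gimap7 was 0.75. Without cluster 7 it was 0.69. Among CD4 T cells, B and T lineage genes were found together in 19 of 238 TG and 13 of 734 WT cells. Cd79a stood there at 72.2 CPM in TG and 31.8 in WT, and its part in the ratios was not tested.

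**Figure D3:**
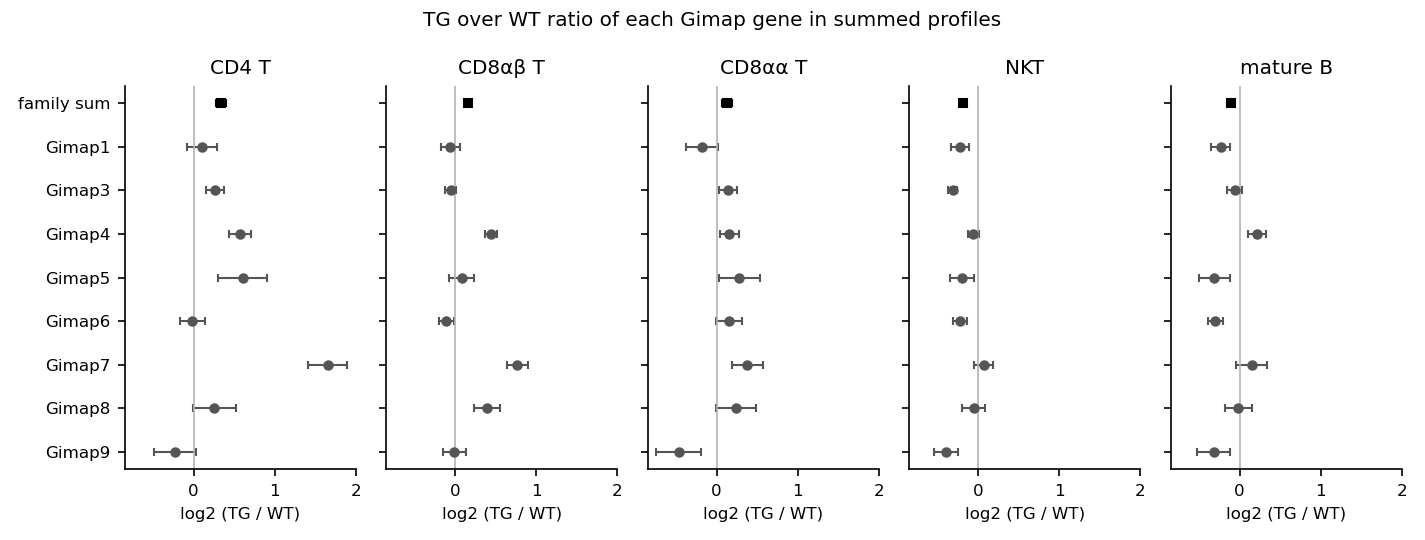
log2 ratio of TG over WT for each Gimap gene (circles) and for the family sum (squares) in 5 cell types, with 95% conditional binomial intervals. Gimap7 reaches 1.65 in CD4 T and 0.77 in CD8αβ T cells, while Gimap9 lies below 0 in all 5.

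The genotypes also differ in which clusters make up the T cells. Of the CD4 T cells, naive-like cluster 6, the lowest in Gimap7, held 58 of 238 TG and 397 of 734 WT cells, and cluster 21, rich in Foxp3, the factor of regulatory T cells, held 48 and 65. Foxp3 stood at 214 CPM in TG and 119 in WT CD4 T cells. The CD8αβ T cells differed as well. Cluster 4 held 145 of 1020 TG and 363 of 819 WT cells. Among the CD8αβ clusters it was the richest in Ccr7 (204 CPM in TG and 258 in WT). Ccr7 is the receptor that guides naive T cells to lymph nodes. Inside cluster 4 Gimap7 was at 141 CPM (115 to 172) in TG and 66.7 (52.0 to 84.3) in WT, and Gimap4 at 451.5 and 298. Gimap1 went the other way within cluster 4, with a log2 ratio of -0.47 (-0.80 to -0.16), and Gimap6 was at 481 and 471 CPM. Past 1.5-fold higher in TG in cluster 4 were 2 of 8 members, where 6.88% of genes were, and none was past it lower, where 10.3% were. Gimap7 was also higher in TG within the dividing cluster 7 (ratio 0.75, 0.54 to 0.96) and within CD4 clusters 6 (1.27, 0.57 to 1.94) and 9 (0.96, 0.63 to 1.29). Within cluster 6 Ccr7 was at 149 CPM in TG and 268 in WT and Ifng at 51.6 and 10.0, and their part was not tested. In CD8αβ cluster 12, Gimap7 had a ratio of 0.00 (-0.35 to 0.37). With equal weight for each cluster of at least 20 cells in both genotypes, the Gimap7 ratio of CD8αβ T cells was 0.36, which is not past 1.5-fold. That of CD4 T cells was 1.37. Clusters 4, 7, 12, 13 and 18 entered for CD8αβ T cells and 6, 9 and 21 for CD4 T cells. Cluster 23, with 15 TG cells, was left out. In CD8αβ cluster 13 Gimap7 was at 209.5 CPM in TG and 136 in WT, a ratio of 0.62 (0.21 to 1.04), and in cluster 18 it was at 785 and 674, with 37 WT cells.

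NKT cells showed the opposite sign. There the sum had a log2 ratio of -0.19 (-0.22 to -0.16). No member was past 1.5-fold, where 7.24% of genes were higher and 5.52% lower. Gimap3 was at 1784 CPM in TG and 2220 in WT (-0.32, -0.37 to -0.26) and Gimap9 at 245 and 323 (-0.40, -0.55 to -0.25). Gimap7 went the other way, at 476 and 454. These ratios moved with markers, since TG cells held less Zbtb16 and Klrb1c and more Cd4, as given above. Without the cells holding a Cd4 UMI, which left 108 of 446 TG and 1546 of 2232 WT cells, the ratio of the sum was -0.09. No interval was computed for that ratio, and the depth of the cells left was not compared. The part of Zbtb16 and Klrb1c was not tested. In CD8αα T cells the sum was higher in TG (0.13, 0.07 to 0.19), with Gimap7 at 704 and 544 CPM and Gimap9 lower, at 226 and 313. Without the cells holding a Trdc UMI the ratios were 0.10 for the sum, 0.26 for Gimap7 and -0.40 for Gimap9. No member was past 1.5-fold there, where 9.57% of genes were higher and 6.33% lower. Of the CD8αα T cells, 29 of 410 in TG and 0 of 194 in WT held B and T lineage genes together. Cd4 stood at 113 CPM in TG and 10.9 in WT and Cd79a at 74.0 and 18.2. The part of these transcripts was not tested. Cells named NK had a ratio of -0.03 (-0.07 to 0.01) for the sum and 0.45 (0.30 to 0.61) for Gimap7, with no member past 1.5-fold, where 7.15% of genes were higher and 8.76% lower. In cluster 8 alone, without clusters 3 and 11, the ratio of Gimap7 was 0.25 with an interval that held 0 (-0.11 to 0.61). Cluster 8 still held T cell transcripts, with the 4 T markers at 444 CPM in TG and 303 in WT and Cd4 at 122 and 13.8. Over the 7 lymphocyte types compared, the interval lay below 0 in 5 for Gimap6 and in 4 for Gimap9, and above 0 in none for either. For Gimap7 and Gimap4 it lay above 0 in 4 and below 0 in none. No share of all genes was counted for these intervals.

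In mature B cells the sum was lower in TG (-0.11, -0.15 to -0.06) and no member was past 1.5-fold, where 3.99% of genes were higher and 5.91% lower. This sign rested on cluster 17, in which most cells carried T and B lineage genes together. In cluster 1 alone the sum had a ratio of 0.03 (-0.02 to 0.08), and 3 members were higher in TG, Gimap4 (0.47, 0.33 to 0.60), Gimap7 (0.45, 0.22 to 0.67) and Gimap3 (0.24, 0.14 to 0.35). Gimap6, Gimap1 and Gimap5 were lower, at -0.26 (-0.36 to -0.16), -0.22 (-0.35 to -0.10) and -0.22 (-0.44 to -0.01). TG cells of cluster 1 held 67.3 CPM of Cd3e against 32.5 in WT and 165.5 against 138 of the 4 T markers, and 101 of 1028 TG and 71 of 1329 WT cells held T and B lineage genes together. The part of these transcripts in the ratios was not tested. In immature B cells Gimap6 was at 381 CPM in TG and 484 in WT and Gimap7 at 118 and 125.

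Within each genotype, cluster 4 was compared with CD8αβ clusters 12, 18 and, in WT, 23, CD8αα T cells (cluster 2) and NKT cells (cluster 0), which gave 9 comparisons, among them WT cells of cluster 18, of which there were only 37. Clusters were made from the transcripts of the same cells, so these are descriptions. The family sum was higher than in cluster 4 in all 9, by a median log2 ratio of 1.35 (range 0.75 to 1.58). Gimap7 stood out, with a median of 2.55 (1.47 to 3.34), and Gimap4 came next, with 1.79 (1.10 to 2.34). Gimap8, Gimap1, Gimap3 and Gimap5 had medians between 1.11 and 1.36. Gimap6 had 0.71 and was past 1.5-fold in 7 of 9 comparisons, and Gimap9 had 0.57 and was past it in 3. Of all genes, 31% in TG and 22.2% in WT were past 1.5-fold higher in cluster 12, 30% and 26.3% in cluster 18, 33.2% and 28.7% in NKT cells, and 22.8% in WT cluster 23. CD8αβ clusters 7 and 13, the latter also with Ccr7 (138 CPM in TG and 101 in WT), were not among the 9 and had smaller ratios of the sum over cluster 4, at 0.28 (TG) and 0.18 (WT) in cluster 7 and 0.18 and 0.50 in cluster 13. In CD8αα T cells 7 of 8 members in TG and 8 of 8 in WT were past 1.5-fold higher than in cluster 4, where 36.1% and 27.9% of genes were. Gimap7 was at 785 CPM in TG cells of cluster 18 against 141 in cluster 4, and at 544 in WT CD8αα T cells against 66.7. Median depth was 4961 UMIs in TG and 2764 in WT cells of cluster 4.

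**Figure D4:**
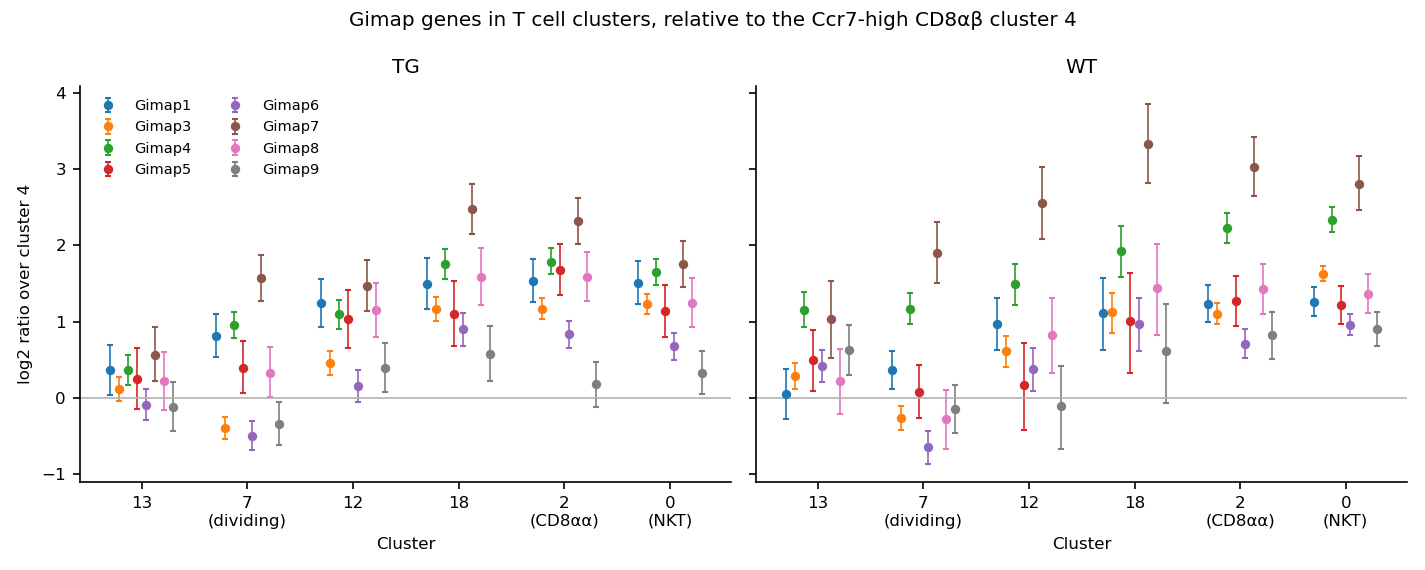
log2 ratio of each Gimap gene over Ccr7-rich CD8αβ cluster 4, within each genotype, for clusters 13, 7, 12, 18, 2 and 0, with 95% intervals. Gimap7 reaches 3.34 in WT cells of cluster 18 and Gimap9 at most 0.90. In dividing cluster 7, Gimap6 lies below 0 in both genotypes.

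Cells named CD8αβ T in the dividing cluster 7, with 1127 CPM of the division gene Mki67 in TG and 1035 in WT, had a different member pattern. Markers of other cells were higher there than in cluster 4. Cd4 stood at 249.3 CPM in TG and 165 in WT against 38.8 and 14.3, the NK cell gene Ncr1 at 169 and 62.9 against 2.77 and 1.91, and the B cell gene Cd79a at 144 and 182 against 65.1 and 11.4. Cd8a and Cd8b1 together stood at 752 and 705 CPM against 1673 and 1978. The family sum of cluster 7 was 3034 CPM in TG and 2567 in WT, log2 ratios of 0.28 and 0.18 over cluster 4, beside medians over all genes of 0.29 and 0.16. Both signs reversed with totals free of ribosomal protein and mitochondrial genes, and that in WT also as the median of members, as given at the end. Gimap7 was at 419 and 249 CPM, with ratio intervals of 1.27 to 1.88 and 1.51 to 2.31, and Gimap4 at 879 and 672, ratios of 0.96 and 1.17. As a share of UMIs, Gimap6 was lower than in cluster 4, at 342 and 302 CPM, ratios of -0.49 (-0.67 to -0.31) and -0.64 (-0.86 to -0.43). So was Gimap3, at 603 and 629 CPM. Cells of cluster 7 held more family UMIs each. The family took 7339 UMIs in 319 TG and 2409 in 132 WT cells there. In cluster 4 it took 1801 in 145 TG and 2376 in 363 WT cells. The lower shares therefore do not show fewer Gimap6 or Gimap3 molecules per cell, which was not tested. Without cells holding a UMI of Cd4, Ncr1 or Cd79a, 58 of 319 TG and 53 of 132 WT cells of cluster 7 were left. The ratios were then 0.16 and 0.43 for the sum, 1.22 and 2.24 for Gimap7 and -0.49 and -0.36 for Gimap6, with no interval computed. In that case Gimap3 had -0.59 in TG and -0.05 in WT. Past 1.5-fold higher among all cells of the clusters were 3 of 8 members in TG, where 36.9% of genes were, and 2 of 8 in WT, where 29.7% were. Past it lower were 0 in TG and 1 in WT, where 14.9% and 17.9% of genes were. CD4 T cells had the same signs in WT, where cluster 9 held 189.7 CPM of Gimap7 against 64.1 in the naive-like cluster 6, and 460.1 against 736 of Gimap6. There 2 of 8 members were past 1.5-fold higher and 1 lower, where 18.5% and 7.63% of genes were. Cluster 21 held 728 CPM of Gimap7 in TG (48 cells) and 229.8 in WT (65 cells).

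The antibody layer gave a readout that does not come from transcripts. CD44, a surface receptor that is high on antigen-experienced T cells, was used to split the cells of a type and genotype into 3 groups of equal size. In WT CD8αβ T cells Gimap7 was at 77.7, 218 and 296 CPM from the low to the high CD44 group, a log2 ratio of high over low of 1.93 (1.53 to 2.35), and Gimap4 was at 312, 558 and 824, a ratio of 1.40. Gimap6 was at 453, 519 and 489, a ratio of 0.11 with an interval that held 0 (-0.08 to 0.30). In TG CD8αβ T cells the low group held 319.6 CPM of Gimap7, against 319 and 454 in the others, a ratio of 0.50 (0.34 to 0.67). The division gene Mki67 moved with the same split, by 3.74 (3.20 to 4.33) in WT and 0.35 (0.22 to 0.48) in TG CD8αβ T cells, and by 2.61 (1.09 to 4.58) in WT CD4 T cells. Il7r had ratios of -1.42 in WT and 0.73 in TG CD8αβ T cells, and the part of these cell states in the Gimap ratios was not tested. WT CD4 T cells held 58.0, 135 and 186 CPM of Gimap7, while Gimap6 was at 737.5, 631 and 439.5. In TG CD4 T cells the ratio of Gimap7 was -0.68 (-1.10 to -0.26), opposite in sign to the 1.68 (1.12 to 2.27) of WT. In NKT cells, the ratios of Gimap7 were 0.05 and 0.10, both with intervals that held 0. Median depth differed between the low and high CD8αβ groups, at 2721 and 4234 UMIs in WT and 3719.5 and 5197.5 in TG, and its part in these ratios was not tested. The same split by CD49a protein, added after the data were seen, gave Gimap7 ratios of 1.11 in TG and 1.09 in WT CD8αβ T cells, where Mki67 had ratios of 1.11 and 0.50. In the other T cell sets the CD49a ratios of Gimap7 lay between -0.08 and 0.38, and their intervals held 0 except in WT NKT cells (0.14, 0.01 to 0.27).

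**Figure D5:**
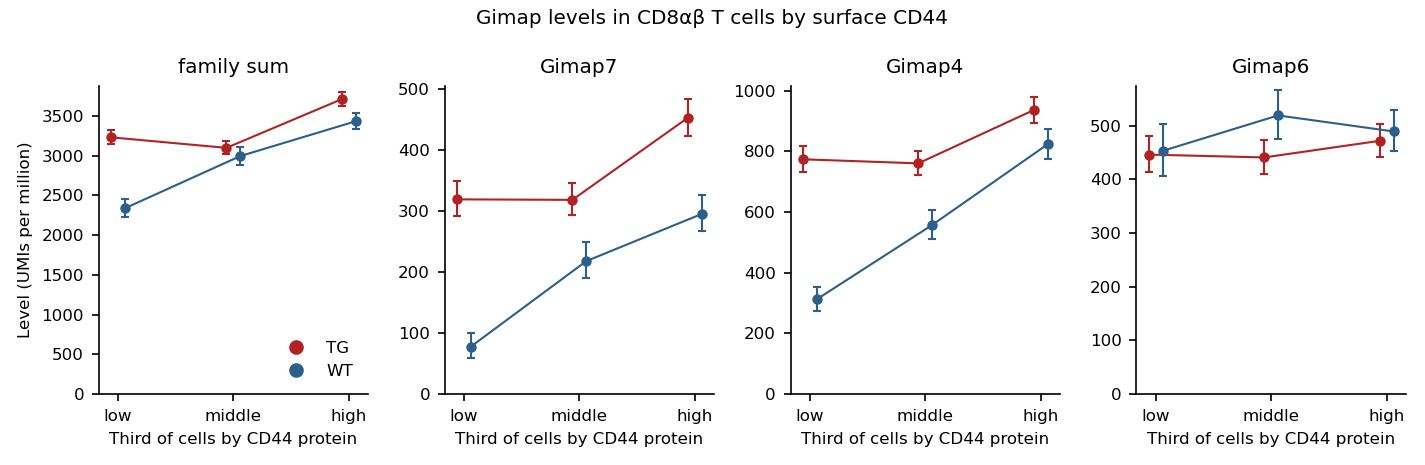
Level (CPM) of Gimap genes in 3 equal groups of CD8αβ T cells by CD44 protein, TG and WT, with 95% Poisson intervals. In WT, Gimap7 stands at 77.7, 218 and 296 CPM from low to high CD44 while Gimap6 stays between 453 and 519.

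Other gene lists bearing on the family were counted the same way, each chosen with earlier results of these data known. Of 12 genes of naive and quiescent lymphocytes, such as Ccr7 and the transcription factors Lef1 and Tcf7, 8 were past 1.5-fold lower in TG CD8αβ T cells (median log2 ratio -0.78 against 0.03 over all genes) and 9 in CD4 T cells (median -0.71 against 0.07), and none was past it higher. Of all genes, 6.22% and 7.56% were past it lower there. In dividing cluster 7 all 12 were past it lower than in cluster 4, where 14.9% (TG) and 17.9% (WT) of genes were. Their medians were -2.24 in TG and -1.85 in WT, beside Gimap medians of 0.37 and -0.03. Clusters were made from these transcripts, and cluster 4 was picked out by Ccr7, a gene of this list. The fall was therefore fixed in advance and is a description only. Of 11 BCL-2 family and autophagy genes, 1 was past 1.5-fold higher in TG CD8αβ T cells, where 9.43% of genes were, and none lower. The survival gene Bcl2 itself was at 195 CPM in TG and 221 in WT. Gabarapl2, the partner of Gimap6, was at 263 and 205 CPM there. In NKT cells Bcl2 was at 409 and 523 CPM.

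Over 21 points, each a cell type of a genotype with at least 50 cells, the genes most like the summed family were sought among 7946. The points share 2 libraries, and the correlations are descriptions of log2(CPM + 10). Pearson's r was highest for Crkl, an adaptor of receptor signalling, and Slain1, both at 0.95. Sash3, an adaptor of lymphocytes, and Ptpn22, a phosphatase of T cell receptor signalling, had 0.946 and 0.935. Also among the 10 most alike was 4833403J16Rik (0.943), a long non-coding RNA annotated at chr6:48755338-48756368, between Gimap5 and Gimap3. It was at 99.7 and 83.6 CPM in TG and WT CD8αα T cells, 52.1 and 60.3 in NKT cells, 32.1 and 35.3 in mature B cells, and 5.02 and 11.5 in monocytes. The ranking depended on the points. Over 27 points that were clusters of T and NK cells, an alternative added after the data were seen, the 10 most alike were led by Alkbh2 (0.903), H2.K1, Rgs3 and Zbtb38, and held none of the genes just named. Among the members r with the sum was then lowest for Gimap9, at 0.695. The values that follow are again over the 21 points, which include myeloid types with little of the family. The flanking genes Tmem176a and Tmem176b, which lie beyond Gimap3, had r of -0.09 and -0.11. The neighbours Repin1, Lrrc61 and Zfp775 had 0.689, 0.611 and 0.522. Between members over the same 21 points, r had a median of 0.945 over 28 pairs, and the lowest was 0.852, between Gimap7 and Gimap1. The closest member to Gimap7 was Gimap4 (0.973), while Gimap1, Gimap3 and Gimap5 were each closest to Gimap8.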

How the data were processed

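Liver CD45+ cells were captured in 2 pooled libraries and sequenced for transcripts and antibody tags. The authors aligned reads to mm10 with STAR in the BD Rhapsody pipeline and deposited UMI counts per gene and cell, of which the filtered table was used. They also deposited a percent of mitochondrial UMIs per cell, and antibody values as natural log centred ratios, which were used for the splits by CD44 and CD49a. Genotype, cell type and cluster came from the deposited metadata. Member counts were the same in the filtered table and the library files in every named cell.

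Counts were added up over the cells of a set and genotype, divided by the set's total (CPM), and given exact Poisson intervals. Shares of cells had Clopper-Pearson intervals and ratios of sums exact conditional binomial intervals, all at 95% and for counting error only, since UMIs of 1 library hold no spread between mice. A gene counted as tested with at least 50 UMIs over both sets and as past the threshold at 1.5-fold. No test was run, because each genotype had 1 library. The depth of 18498477 (TG) and 22216379 (WT) UMIs gave each member at least 3014 UMIs per genotype. Sets of fewer than 50 cells of a genotype were left out of the cell type comparisons, and where one is named its number of cells is given. Doublets were called with Scrublet (scanpy 1.11.5, expected 5%), which marked 0.839% of TG and 3.27% of WT cells, and were removed only as an alternative.

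Named genes were the 8 members, the 10 genes most like the summed family, each member's closest member, and lists of naive, BCL-2 and autophagy, division and neighbouring genes. The members and lists were chosen with earlier results of these data known. Of 6 division genes, 6 were past 1.5-fold higher in cluster 7 than in cluster 4 in both genotypes, where 36.9% (TG) and 29.7% (WT) of all genes were. Cluster 7 was called dividing by Mki67, a gene of that list, so this too was fixed in advance. Of 8 locus neighbours, Aoc1, Rarres2 and Atp6v0e2 were not among the genes counted. The other 5 passed the UMI minimum in CD8αβ T cells, where 3 were past 1.5-fold higher in TG (9.43% of all genes) and 2 lower (6.22%). Computations used Python 3.11.15, numpy 2.4.6, scipy 1.17.1, pandas 2.3.3 and edgeR 4.0.16 (TMM factors only), and were checked on simulated counts. Alternatives were TMM scaling, totals without ribosomal protein and mitochondrial genes, equal weight of cells or clusters, thinning, the median of members, removal of doublets, mixed cells or, added after the data were seen, cells holding Trdc, Cd4, Ncr1 or Cd79a UMIs, and a higher UMI minimum. Cells with no genotype name (5379 and 16829) stand for no genotype and entered no comparison of genotypes. RefSeq sequences of GRCm38.p6 matched 8 of 8 members.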

Additional observations from a re-analysis of the deposited data

Results flagged for a closer look

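In 3 cases the TG over WT ratio had opposite signs in 2 cell types, each with an interval clear of 0; the differences themselves were not tested. Gimap3 was higher in TG CD4 T cells (0.27) and lower in TG NKT cells (-0.32), a difference of 0.58 on the log2 scale. Gimap5 was higher in TG CD4 T cells (0.60) and lower in TG mature B cells (-0.31), a difference of 0.92; in B cells of cluster 1 alone it was -0.22, and without cells of mixed lineage -0.17. The family sum differed by 0.53 between CD4 T (0.34) and NKT cells (-0.19).

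The cells of the second pool with no genotype name, which entered no comparison, held more of some members than the WT cells of that pool gated by the same transcripts (shown where intervals did not overlap and the gap was over 20%). Gimap7 was at 397 CPM in their CD8 T cells, against 268 in WT. In B cells Gimap7 was at 142 CPM against 97.0, and Gimap4 at 346 against 284. Other members were lower in the cells with no name. In their T cells Gimap3 was at 1079 CPM against 1631, Gimap4 at 838 against 1091 and the family sum at 3867 against 5029. Gimap7 was higher there, at 410 against 348. The T cells differed in make-up, since 7808 of 11985 cells with no name passed the CD8 gate against 690 of 3926 in WT. Within CD8 T cells Gimap4 was at 804 against 798 and the sum at 3727 against 3886. Gimap3 was lower there too, at 1031 against 1172, as were Gimap1, at 331 against 390, and Gimap6, at 528 against 600. In B cells Gimap5 was at 103 against 128 and Gimap6 at 438 against 531. In the first pool, the B cells with no genotype name held 455 CPM of Gimap4 against 366 in TG and 188 of Gimap7 against 118, and their CD8 T cells held 266 of Gimap5 against 218.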

How the results depend on the processing

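No paired analysis was possible because each group had 1 library, and no library could be left out for the same reason. Of 640 alternatives for single members, 572 left the log2 ratio within its counting interval, 63 moved it beyond and 5 reversed it. The median shift was 0.0374 and the largest 1.03, for Gimap1 in WT cluster 7 over cluster 4, thinned. Gimap7 kept a higher level in TG in CD4 T and CD8αβ T cells under all alternatives run, with ratios down to 1.37 and 0.36. The sums were less stable, and the cause was not tested. The TG over WT sum in CD8αβ T cells (0.16) was 0.0908 with totals free of ribosomal protein and mitochondrial genes, 0.23 with equal weight of cells and 0.23 thinned, 0.0349 as the median of members and 0.0917 with equal weight of clusters. In CD4 T cells (0.34) it was 0.21 with TMM, 0.24 with those totals and 0.26 as the median. In mature B cells (-0.11) it was -0.0589 with TMM, -0.0505 with equal weight of cells, -0.0510 thinned and -0.00531 without doublets, and it reversed to 0.0205 without cells of mixed lineage and to 0.0288 in cluster 1 alone, chosen after seeing the data. In NKT cells (-0.19) it was -0.25 with TMM and -0.0854 without cells holding a Cd4 UMI, chosen after seeing the data. Cluster 7 over cluster 4 in TG (0.28) gave 0.14 with TMM, -0.0677 without ribosomal protein and mitochondrial genes and 0.37 as the median, and in WT (0.18) 0.0267, -0.0936 and -0.0278, with 0.30 at equal weight of cells. Without cells holding a Cd4, Ncr1 or Cd79a UMI, also chosen after seeing the data, it was 0.16 in TG and 0.43 in WT. Cluster 9 over cluster 6 in WT (0.17) gave 0.0215, 0.00202 and 0.29 under the same alternatives as the TG cells. Of single members, Gimap8 in TG cluster 7 over 4 reversed to -0.0149 without ribosomal protein and mitochondrial genes and to -0.0374 without cells holding a Cd4, Ncr1 or Cd79a UMI, Gimap1 in WT to -0.66 thinned, Gimap3 in NK cells to 0.0322 in cluster 8 alone and Gimap6 in NK cells to 0.0137 thinned. At a minimum of 200 UMIs the share of genes past 1.5-fold was 9.65% in place of 17.2% in cluster 4, 5.03% in place of 9.91% in mature B and 6.93% in place of 12.8% in NKT cells. Depth limits mainly the sets of few cells: Gimap7 in WT γδ T cells rests on 18 UMIs.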

Other observations

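Basophils, too few for the comparisons above, differed between the libraries in which members they held. In 45 TG cells Gimap1 was at 248 CPM (176 to 339), beside 66.9 in TG monocytes, while Gimap3 was at 44.5 and Gimap4 at 50.9. In 16 WT cells Gimap1 was at 347 CPM (194 to 572), Gimap3 at 462 (282 to 714) and Gimap4 at 231, each from 20 UMIs or fewer. The WT cells also held more of the 4 T cell markers, 763 against 172 CPM, and of Klrb1c, 185 against 19.1, and the part of these transcripts was not tested.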
